A study of Arabidopsis thaliana with 12 samples.

Results

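Of 3 nuclear genes that serve the chloroplast NADH dehydrogenase-like (NDH) complex and were measured by a probe of their own, CRR41 was higher in the flu mutant than in wild type (WT) on every array, 2.62-fold in the mean. All 6 flu arrays lay above all 6 WT arrays for 15.5% of the tested probes. For CRR21 and NdhS the differences were 0.74 and 0.90 on the log2 scale. Neither passed the test, which 38.9% of all tested probes passed. On WT arrays 3 and 4 both genes lay within the range of the flu arrays. On the other 4 WT arrays they lay below every flu array. The sizes depended on corrections for the place of a probe in the numbering of the array, that of CRR41 less so. After these, CRR41 stood at 1.35 or 1.04 and passed. NdhS stood at 1.40 or 1.66 and passed, while CRR21 stood at 0.35 or 0.07 and did not. The period of the first correction was chosen on these same differences, so passing after it is not independent support. NdhS passed under 5 of the 22 alternatives tried. The number of the CRR41 probe is divisible by 6. The 189 tested probes of that kind had a mean log2 difference of 0.47, and CRR41 was not tested against that shift. Each of the 3 genes has a probe that the platform annotation assigns to no other gene, and all 3 were tested. Such a probe exists for 691 genes in all among the 3439 probes of the table. The 3 genes were chosen with earlier results of these data known. NdhN and OTP85, also genes of the pathway, have such a probe too. Their log2 differences were 0.17 and -0.20, and neither passed.

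The groups were flu plants, which lack FLU, and WT plants, both of the Landsberg ecotype and both harvested 30 min after return to light that followed 12 h of darkness. FLU is a plastid protein that holds back chlorophyll synthesis at night, and without it the precursor protochlorophyllide builds up in darkness and generates singlet oxygen in light. Each group had 6 arrays of total RNA, and nothing in the sources used here says that they came from separate plants, so each p-value reflects only how far the arrays scatter, and that scatter may be technical. The tissue is not given, and a shift in the share of cell types cannot be told apart from a change in RNA per cell.

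The NDH complex sits in the thylakoid membrane, takes electrons from ferredoxin and passes them to plastoquinone, and so returns electrons around photosystem I. Its subunits are encoded partly in the plastid and partly in the nucleus, and it needs nuclear factors that assemble it or process plastid transcripts. Many of its genes carry the name CRR, for chlororespiratory reduction, because their mutants lack the rise of chlorophyll fluorescence that the complex causes after light is switched off. CRR41 (AT1G51100) is a stromal factor needed to assemble the membrane-peripheral arm of the complex. CRR21 (AT5G55740) is a pentatricopeptide repeat (PPR) protein needed to edit a site in the plastid ndhD transcript. NdhS (AT4G23890), also known as CRR31, is the subunit to which ferredoxin is thought to bind.

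The values are intensities on a linear, arbitrary scale from 0 to 100. The array medians were 0.426 to 0.442 in flu and 0.443 to 0.491 in WT before quantile normalisation, which removed that difference. Values under 0.250, the 25th percentile, were raised to that floor before log2 was taken. Within each group, arrays 1 and 2, 3 and 4, and 5 and 6 deviated together, so each such pair was averaged and counted as 1 replicate, giving 3 pair means per group. Of the 9 green tissue markers listed, 5 had a tested probe of their own, and their summed intensity was 34.0 to 40.3 on flu arrays and 37.5 to 45.8 on WT arrays. Of the 3 root, 4 flower and 4 seed markers 0 had one. The antenna gene LHB1B2 was at 14.3 or more on every flu array and at 17.2 or more on every WT array. LHB1B2 and PSBW made up most of the green tissue sum. The green tissue markers went both ways. Their log2 differences, flu minus WT, were -0.26 for LHB1B2, 0.05 for PSBW, 0.16 for PSBY, -0.73 for PRK and 0.29 for SBPASE. None had a limma adjusted p under 0.05, where 38.9% of all tested probes did. The annotation lists 0 probes for FLU, so the genotype labels were not checked on its transcript.

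Of the 3 genes, only the assembly factor separated the groups on every array. The CRR41 pair means were 0.760, 0.747 and 0.809 in flu, against 0.314, 0.322 and 0.250 in WT. Over single arrays the lowest, median and highest normalised intensities were 0.703, 0.756 and 0.916 in flu, and 0.187, 0.308 and 0.331 in WT. The groups therefore did not overlap on any array, and the lowest flu array was above the highest WT array. This was also so in the values as deposited, which were 0.680 to 0.864 in flu and 0.208 to 0.376 in WT. A separation of all 6 flu arrays above all 6 WT arrays was found for 15.5% of the tested probes, and one of the pair means for 22.6%.

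Over its pair means CRR41 averaged 0.772 ± 0.033 in flu and 0.295 ± 0.040 in WT (SD, n = 3). The log2 difference was 1.39 (SE 0.13, 95% interval 1.07 to 1.72), and it passed at a limma adjusted p of 0.0010. Across all 3128 tested probes 38.9% passed the threshold of 0.05 and 17.5% passed as higher in flu. Of the 3 genes 1 passed, CRR41, which is close to the share over all probes. Its difference ranked 141 from the top among the 3128 tested probes and 21 among the 621 tested probes of 1 gene. WT arrays 5 and 6 read below the floor, so the size of the third pair's difference depends on it. In the other pairs, where all 4 WT arrays were above the floor, the log2 differences were 1.28 and 1.21. The SE, interval and p-value depend on the floor too. With the floor at the 10th percentile, CRR41 stood at 1.48 (SE 0.21, 95% interval 0.98 to 1.98, limma adjusted p = 0.0025).

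**Figure D1:**
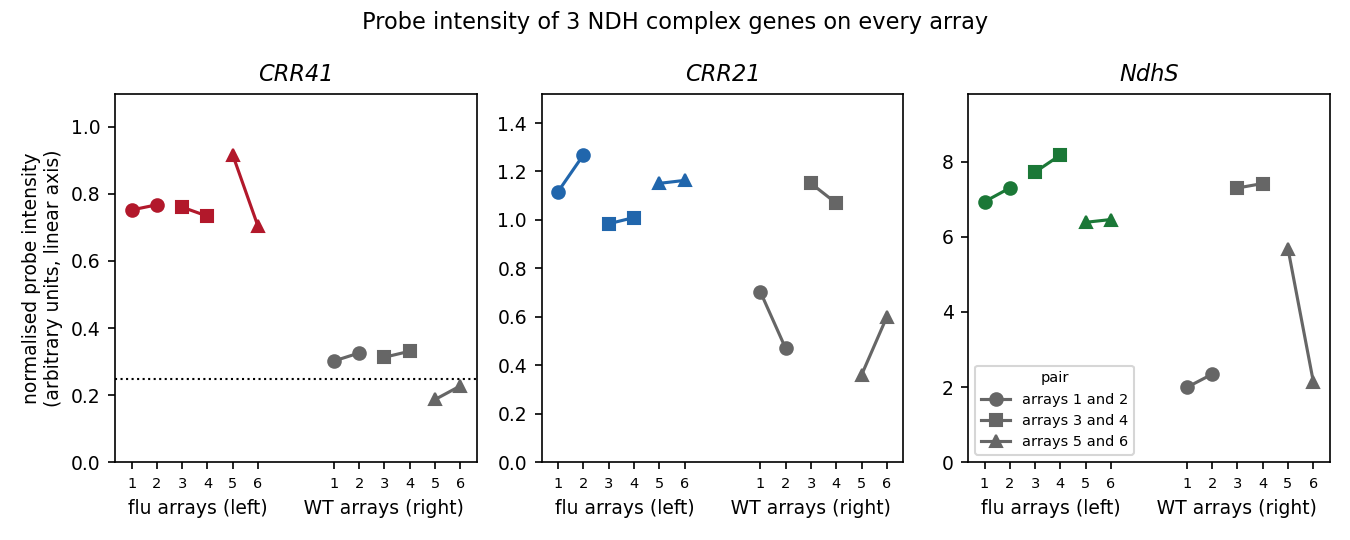
Normalised probe intensity (arbitrary units, linear axes from 0) of CRR41, CRR21 and NdhS on each of the 6 flu arrays (coloured, left) and 6 WT arrays (grey, right); lines join the arrays of a pair, and the dotted line is the floor of 0.250. CRR41 separates the groups on every array, while WT arrays 3 and 4 lie within the flu range for CRR21 and NdhS.

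CRR21, the RNA editing factor, varied little among flu arrays and more among WT arrays. Its pair means were 1.19, 0.997 and 1.16 in flu, against 0.586, 1.11 and 0.480 in WT. The lowest, median and highest arrays were 0.984, 1.13 and 1.27 in flu, and 0.360, 0.652 and 1.15 in WT. WT arrays 3 and 4, at 1.15 and 1.07, lay inside the range of the flu arrays, and the other 4 WT arrays, at 0.703 or less, lay below all flu arrays. The groups thus overlapped through 1 pair of WT arrays.

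Pair by pair, CRR21 was 2.07-fold higher in flu on arrays 1 and 2 and 2.49-fold higher on arrays 5 and 6. On arrays 3 and 4 the ratio of flu to WT was 0.899. Averaged over pairs, flu gave 1.12 ± 0.104 and WT 0.726 ± 0.337 (SD, n = 3), a log2 difference of 0.74 (SE 0.32, 95% interval -0.05 to 1.52, limma adjusted p = 0.124). The interval holds 0 and also values above that of CRR41. Without WT arrays 3 and 4 the log2 difference was 1.104 and passed (limma adjusted p = 0.0063). These are the only WT arrays in the flu range, so a larger difference without them follows from that overlap. Without WT arrays 1 and 2 it was 0.63, and without WT arrays 5 and 6 it was 0.48 (limma adjusted p = 0.297 and 0.302).

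NdhS, the complex subunit, showed the widest spread in WT of the 3 genes. Its pair means were 7.12, 7.95 and 6.42 in flu, against 2.17, 7.36 and 3.91 in WT. The lowest, median and highest arrays were 6.39, 7.12 and 8.18 in flu. The 6 WT arrays, from number 1 to number 6, read 1.99, 2.35, 7.30, 7.42, 5.68 and 2.15. WT arrays 3 and 4 lay within the flu range and WT array 5 just under it, while WT arrays 1, 2 and 6 were at 2.35 or less. The highest flu array exceeded the lowest 1.28-fold, and the highest WT array exceeded the lowest 3.72-fold.

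The averages of the NdhS pair means were 7.16 ± 0.765 in flu and 4.48 ± 2.64 in WT (SD, n = 3). The log2 difference was 0.90 (SE 0.43, 95% interval -0.14 to 1.95), and it did not pass (limma adjusted p = 0.150). NdhS was higher in flu in all 3 pairs, as were 29.6% of tested probes, but the pair values ran from 3.29-fold on arrays 1 and 2 to 1.08-fold on arrays 3 and 4, with 1.84-fold on arrays 5 and 6. Without WT arrays 3 and 4, again the only WT arrays in the flu range, the log2 difference was 1.38 and passed (limma adjusted p = 0.012). Here too the larger difference follows from the overlap. Without WT arrays 1 and 2 it was 0.49, and without WT arrays 5 and 6 it was 0.84 (limma adjusted p = 0.343 and 0.304).

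**Figure D2:**
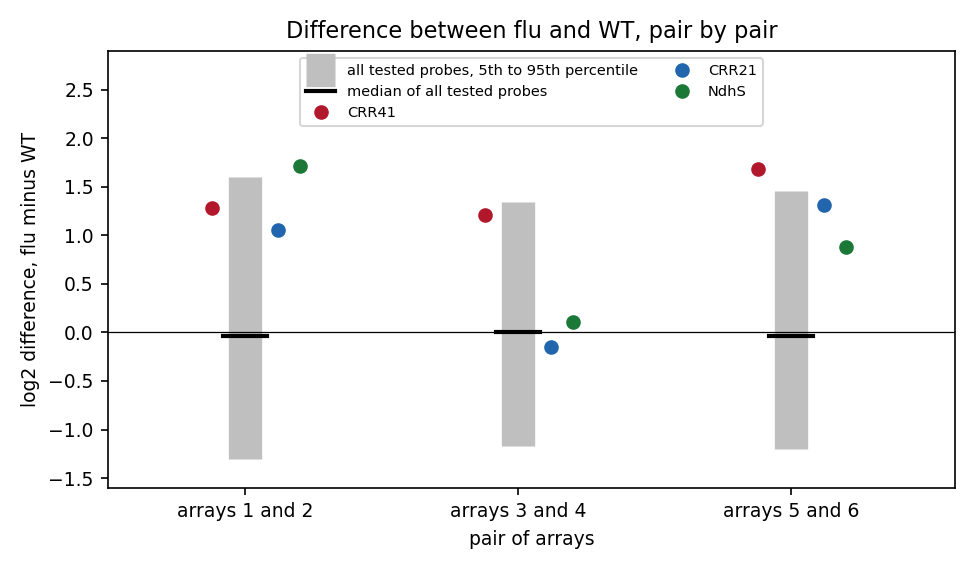
Log2 difference between flu and WT for each pair of arrays; grey bars span the 5th to 95th percentile of all 3128 tested probes, black lines their medians and dots the 3 genes. On arrays 3 and 4 the differences of CRR21 and NdhS were -0.15 and 0.11, near the median of all probes, while that of CRR41 was 1.21.

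Partner arrays 5 and 6 differed by 1.01-fold in flu for NdhS and for CRR21, but they were uneven in WT. NdhS read 5.68 on WT array 5 and 2.15 on WT array 6, a 2.65-fold gap between partners. Only 14 of the 3128 tested probes differed as much between these arrays, and the median probe differed by 0.13 on the log2 scale. CRR21 went the other way, at 0.360 on WT array 5 and 0.600 on WT array 6, a gap that 75 probes reached. WT arrays 1 and 2 also differed by 0.58 on the log2 scale for CRR21, a gap that 257 probes reached. The WT pair means thus rest on partner arrays that differed clearly in 1 pair for NdhS and in both of these pairs for CRR21. With WT array 5 left out the NdhS log2 difference was 1.14, and with WT array 6 left out it was 0.67.

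Set against all tested probes, the uneven WT values stood near the top. The SD of the flu pair means (log2) was 0.15 for NdhS and 0.14 for CRR21, close to the median of 0.15 over all probes. In WT the SDs were 0.89 and 0.65, higher than or equal to those of 97.0% and 92.5% of tested probes. For CRR41 the SD was 0.05 in flu and 0.20 in WT, where the floor raised WT arrays 5 and 6 to the same value. Without the floor it was 0.05 in flu and 0.36 in WT, against a median of 0.26 over all probes in WT. An SD in WT at least 3 times that in flu was found for 29.7% of tested probes, so a wider spread in WT was not confined to these genes. That share includes probes whose flu SD was 0. How many probes reach a gap between the SDs as large as that of NdhS or CRR21 was not counted. Arrays 3 and 4 minus arrays 1 and 2 gave log2 values of 0.16 for NdhS, -0.26 for CRR21 and -0.02 for CRR41 in flu. The same subtraction in WT gave 1.77 for NdhS, 0.95 for CRR21 and 0.04 for CRR41, where the median probe stood at -0.07. Whether these values move with a property of the WT samples or with the arrays themselves was not tested.

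**Figure D3:**
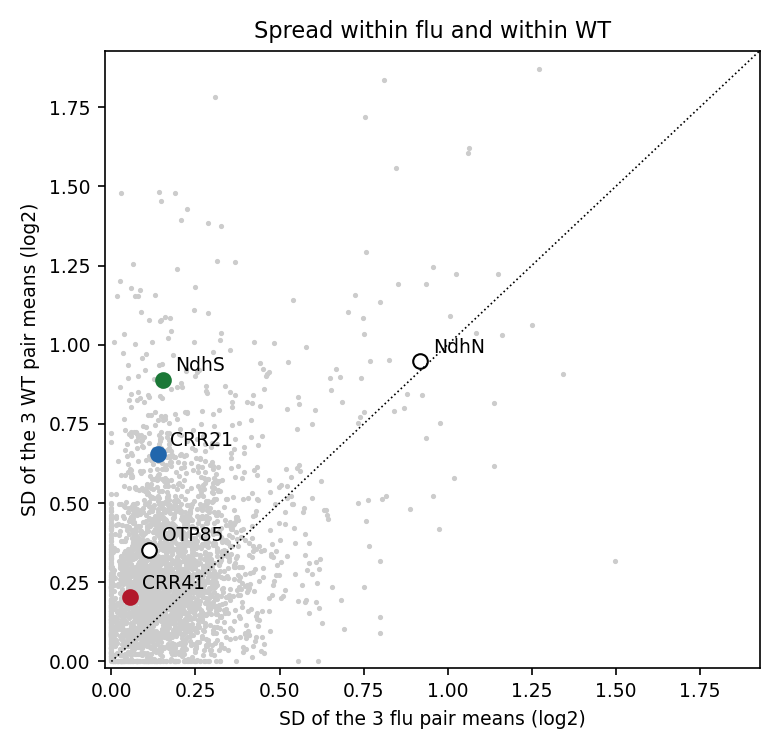
SD of the 3 flu pair means (x axis, log2) against SD of the 3 WT pair means (y axis, log2) for all tested probes (grey) and the named genes; the dotted line marks equal SDs. NdhS and CRR21 lie far above the line, with 0.15 and 0.14 in flu against 0.89 and 0.65 in WT, and NdhN lies on it, at 0.92 in flu and 0.95 in WT.

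The 3 genes were compared with each other only in their differences, since different probes respond differently. CRR41 exceeded CRR21 by 0.23, 1.37 and 0.37 in the 3 pairs, a mean of 0.65 ± 0.62 on the log2 scale (SD, n = 3 pairs). CRR41 minus NdhS gave -0.44, 1.102 and 0.81, a mean of 0.49 ± 0.82, and CRR21 minus NdhS gave a mean of -0.17 ± 0.56. The sign was the same in all pairs for CRR41 over CRR21 only. The order of the 3 differences was described only and not tested. An exact sign-flip test on 3 pairs cannot go below 0.25.

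**Figure D4:**
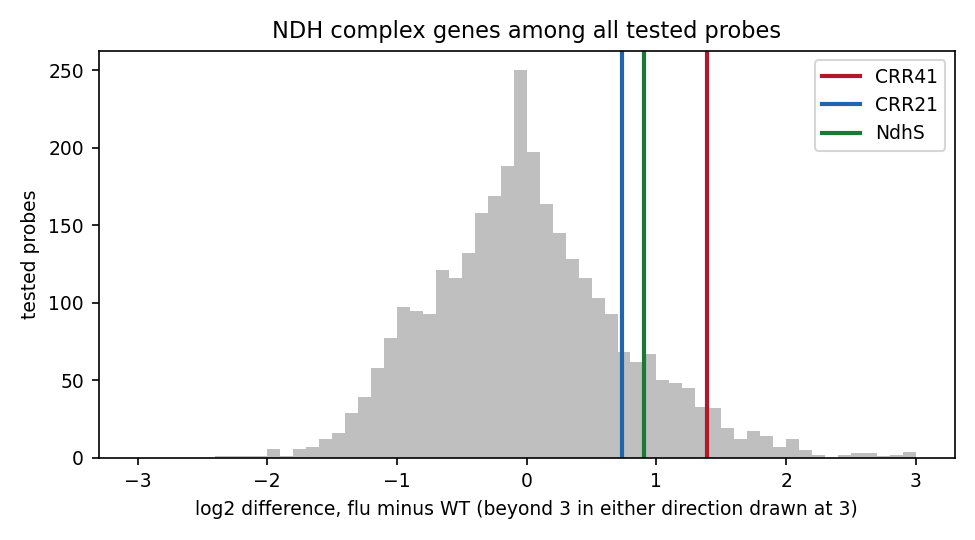
Log2 differences between flu and WT of all 3128 tested probes (grey bars, number of probes per bin of 0.1) with lines at CRR41 (1.39), CRR21 (0.74) and NdhS (0.90). All 3 lie above the median of -0.04, and CRR41 lies above the 95th percentile of 1.32.

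The differences also moved with the place of a probe in the numbering of the array. The dependence recurs with a fixed period in probe number, a period that was chosen on these same differences. The other probes at the same point of that period as a member, or next to it, differed on average by 0.04 around CRR41, 0.39 around CRR21 and -0.50 around NdhS (log2, flu minus WT). With that average subtracted on each array, CRR41 stood at 1.35 and passed (limma adjusted p = 0.00089). CRR21 then stood at 0.35 (limma adjusted p = 0.3499) and NdhS at 1.40, which passed (limma adjusted p = 0.048). Subtracting the local median of the 12 probe numbers on each side gave 1.04 for CRR41, 0.07 for CRR21 and 1.66 for NdhS (limma adjusted p = 0.0014, 0.818 and 0.0094). The sizes of CRR21 and NdhS, and less so that of CRR41, therefore depended on this correction. Which of CRR41 and NdhS had the larger difference depended on it too. The number of the CRR41 probe is divisible by 6, as are those of 189 tested probes, whose mean log2 difference was 0.47. CRR41 ranked 15 from the top among them. The average subtracted around CRR41 also took in neighbouring probe numbers, which are not divisible by 6. Probes with remainders of 1 and 5 had mean log2 differences of -0.11 and 0.06. A correction for the probes divisible by 6 alone was not tried, so CRR41 was not tested against that shift.

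**Figure D5:**
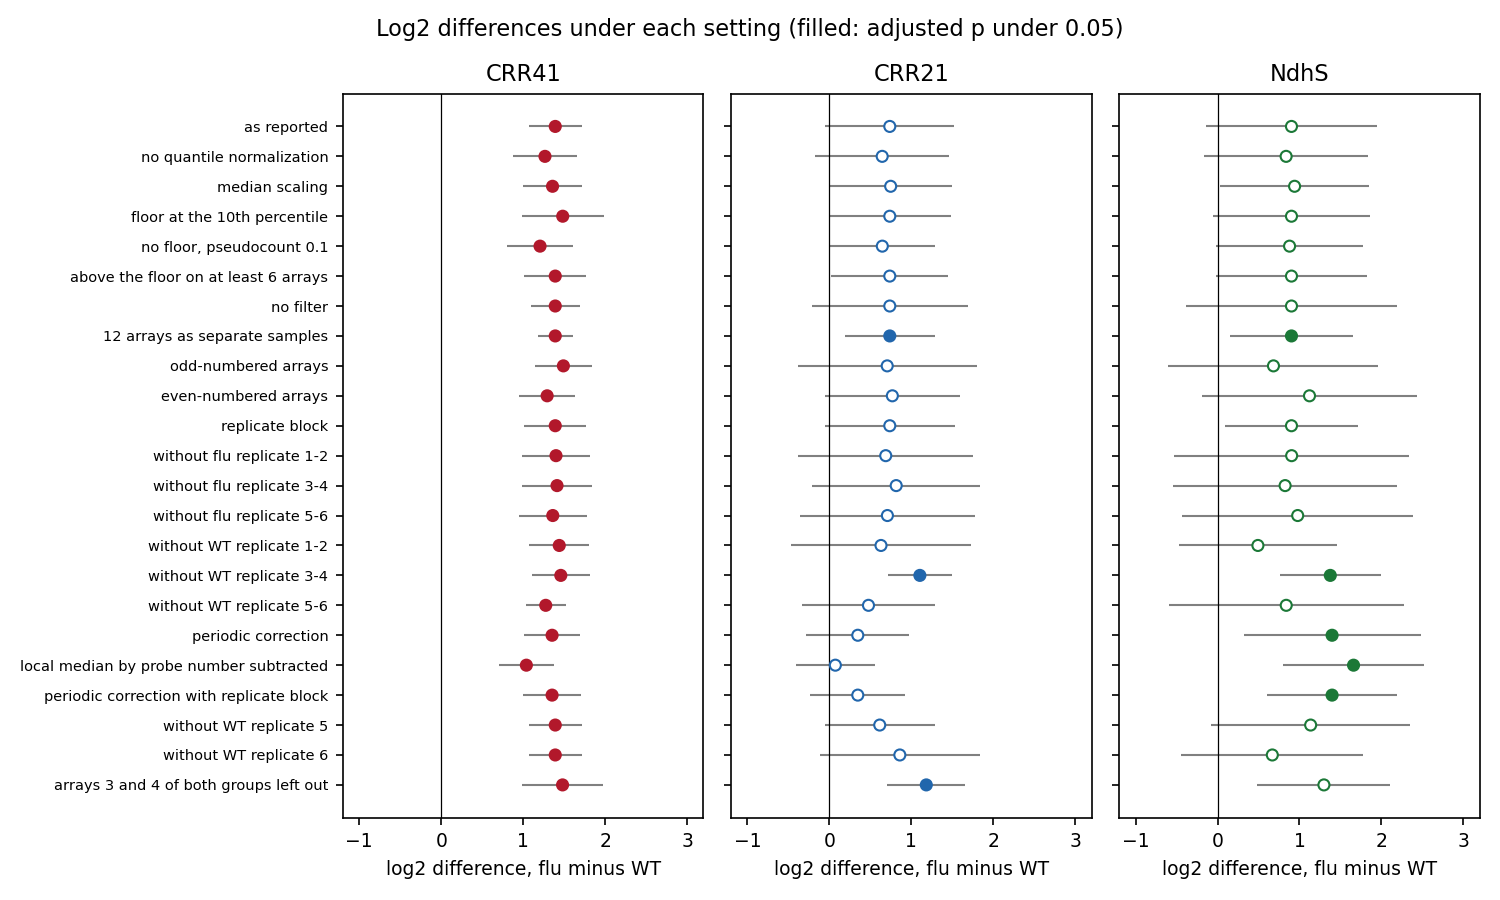
Log2 difference between flu and WT (x axis) with its 95% interval for each gene under every setting tried (rows, the reported one on top); filled dots have a limma adjusted p under 0.05. CRR41 is filled in every row, CRR21 in 3 rows and NdhS in 5, and no dot lies below 0.

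The wider pathway was hardly represented. A list of 50 genes held 17 nuclear-encoded and 11 plastid-encoded subunits, 2 antenna proteins that link the complex to photosystem I, 7 assembly factors, 10 RNA factors and 3 genes of the other cyclic route, which runs through PGR5. Only 5 had a tested probe of their own, 2 subunits, 1 assembly factor and 2 RNA factors. Of these 5, 1 rose (CRR41), 0 fell and 4 did not pass, where 38.9% of all tested probes passed and 17.5% passed as higher in flu. The median log2 difference of the 5 was 0.74, against -0.04 over all tested probes, and 3 of the 5 are the members described above.

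NdhN (AT5G58260), another nuclear-encoded subunit of the membrane-peripheral arm, differed between pairs of arrays rather than between genotypes. Its pair means were 0.493, 1.29 and 1.65 in flu, against 0.422, 1.30 and 1.35 in WT. Arrays 1 and 2 were low in flu and in WT alike, and the remaining 4 arrays of each group were high. The log2 difference was 0.17 (SE 0.62, limma adjusted p = 0.857). Arrays 3 and 4 exceeded arrays 1 and 2 by a log2 of 1.38 in flu and 1.61 in WT, above 99.3% and 97.9% of tested probes or level with them. With the pair taken as a block in the fit the SE fell to 0.13, and NdhN still did not pass (limma adjusted p = 0.330).

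OTP85 (AT2G02980), like CRR21 a PPR protein needed to edit ndhD, was close to the floor. Its pair means were 0.274, 0.299 and 0.255 in flu, against 0.420, 0.284 and 0.265 in WT. Only WT arrays 1 and 2 stood clear of the rest. The log2 difference was -0.20 (SE 0.20, limma adjusted p = 0.465). PPR proteins form a large family, and whether the CRR21 and OTP85 probes also bind transcripts of relatives was not tested.

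Other genes with a probe of their own were ranked by the likeness of their log2 values over the 12 arrays to those of each member. Closest to CRR41 were AT3G04210, AT4G09040 and AT4G35660, with Pearson r of 0.988, 0.984 and 0.983. All 3 were higher in flu, and once each group's mean was removed the r values were 0.76, 0.50 and 0.51. As many as 250 tested probes had an r over 0.9 with CRR41, against 10 with CRR21 and 9 with NdhS. Closest to CRR21 were THIC, an enzyme of thiamine synthesis, AT1G11470 and AT1G74730, with r of 0.943, 0.918 and 0.911 over all arrays and 0.90, 0.85 and 0.85 within groups. Closest to NdhS were AT5G05400, AT5G49590 and AT5G63490, with r of 0.927, 0.890 and 0.860, and 0.89, 0.89 and 0.78 within groups. None of the genes closest to CRR21 and NdhS passed the test between flu and WT, with log2 differences from 0.39 to 0.81. These r values are descriptions over 12 arrays that share pairing and genotype.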

How the data were processed

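RNA of 6 flu and 6 WT arrays was compared. The deposited series table holds 1 intensity per probe and array, and neither the labels nor the table say how the authors scanned, background-corrected or scaled the arrays. The arrays were quantile normalised and floored as described above and put on the log2 scale; 311 probes that never rose above the floor were left out, leaving 3128 to test. The model (lmFit and eBayes of limma 3.58.1, R 4.3.3) had the group as its only term and 3 pair means per group. It was two-sided, with Benjamini-Hochberg adjustment over all tested probes and a threshold of 0.05, and was tested on simulated data. Adjusted p-values come from this fit, or from the same limma steps on the alternative named beside them.

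Partner arrays of a group had correlated deviations from the group mean (0.21 to 0.68), and arrays that are not partners correlated negatively (-0.55 to -0.04), which centring on the group mean favours. Same-numbered pair means of flu and WT also deviated together, with correlations of 0.46, 0.38 and 0.26. No label states this pairing, which was read from the values, and the replicate block is an alternative.

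Names come from GEO's annotation of the platform, which may be out of date: 692 probes have 1 gene, 870 several, and 1877 are not listed and stay unnamed. Of the 692, 690 matched the TAIR10.1 gene table. The build behind the probes is unknown, so no coordinates are given. The members, the pathway and marker lists, and the rule for naming (members, every tested pathway gene, the 3 genes most like each member) were chosen with earlier results of these data known. The number of arrays limits the precision.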

Additional observations from a re-analysis of the deposited data

Results flagged for a closer look

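CRR41 on flu array 5 stood apart from the other flu arrays. It read 0.916, and the other 5 lay between 0.703 and 0.767, so its gap to the nearest array took up more of the group's log2 range than Dixon's 95% critical value for 6 samples allows. Chance flags about 1 in 20 groups, and 10 groups were examined. The CRR41 log2 difference was 1.29 on the even-numbered arrays alone, which leave it out, and 1.49 on the odd-numbered arrays, which hold it. Both passed (limma adjusted p = 0.0028 and 0.0023).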

How the results depend on the processing

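CRR41 was higher in flu and passed under all 22 alternatives, with log2 differences from 1.04 to 1.49. None of the 22 corrected for the probe numbers divisible by 6 alone. CRR21 and NdhS were higher in flu under all 22, and passed under 3 and 5 of them. With the 12 arrays as separate samples both passed, at 0.74 and 0.90, and 60% of the 5 tested NDH list genes passed, beside 55.4% of all tested probes (20% and 38.9% as reported). With pairs of arrays, or WT array 5 or 6, left out in turn, CRR21 ran from 0.48 to 1.104, NdhS from 0.49 to 1.38, and the share of the list from 20% to 60%, beside 26.9% to 41.5% of all probes; both genes passed only without WT arrays 3 and 4. With the periodic correction for probe number NdhS was 1.40, also with the replicate block, 40% of the list passed, beside 37.1% of all probes (43.3% with the block), and CRR21 minus NdhS was -1.05, also with the block. After subtraction of the local median over probe numbers NdhS was 1.66, 40% of the list passed, beside 38.0% of all probes, and CRR41 minus NdhS and CRR21 minus NdhS were -0.62 and -1.59. With arrays 3 and 4 of both groups left out, CRR21 passed at 1.18, 40% of the list passed, and 685 probes (21.9%) passed, against 1216 as reported; fewer samples enter that fit. Other causes were not tested. The replicate block called 1371 probes and changed no call of the 3 genes (limma adjusted p = 0.0036, 0.115 and 0.074). Leaving out WT array 5, WT array 6, or arrays 3 and 4 of both groups was chosen after seeing the data. CRR41 and OTP85 had arrays below the floor, which limits how far their differences can be measured.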
